A study of Mus musculus with 3 samples.

Results

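Endothelial cells line every blood and lymph vessel. The cells described here were the endothelial barcodes of mouse gastrocnemius muscle that held the most interferon-stimulated transcripts. They were selected on their own counts, by a fixed rule. A barcode counted as endothelial when it had at least 300 genes, at most 10% of its unique molecular identifiers (UMIs, 1 per captured transcript) from mitochondrial genes, and at least 3 UMIs summed over Pecam1, Cdh5, Cldn5, Egfl7 and Esam. It was a member when it also had at least 3 UMIs summed over 9 rule genes: Ifit1, Ifit2, Ifit3, Isg15, Rsad2, Usp18, Ifi44, Irf7 and Cxcl10. The rule found 2272 members among 11188 endothelial barcodes (20.3%), of 11715 barcodes in all. There were 890 members in the untreated library, 713 in the sedentary library and 669 in the running library. The comparison barcodes were the 4945 endothelial barcodes with 0 UMIs of the 9 rule genes, called zero barcodes below. The remaining 3971 endothelial barcodes held 1 or 2 such UMIs and took part only where stated.

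All 3 libraries came from wild-type C57BL/6N mice and were made with the 10x Chromium 3' v2 kit from live cells sorted as CD31+ and CD45-. One library had no treatment. One came from sedentary mice caged singly without a running wheel. One came from singly caged mice with a wheel that ran voluntarily for 14 days. The housing of the untreated mice and the number of animals per library are not given in the sources used here. With 1 library per condition, no difference between conditions could be tested, and condition and library cannot be told apart. Intervals below are 95% intervals for counting error only, and they treat the UMIs of a cell as independent molecules. Libraries shared 20 to 32 cell barcodes in pairs, and at most 2 of these were members in both libraries of a pair.

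Interferons are secreted proteins that warn cells of infection. Type I interferons bind the receptor chains Ifnar1 and Ifnar2, the kinases Jak1 and Tyk2 are activated, and a complex that holds Stat2 and Irf9 moves to the nucleus. The complex binds a short promoter element, the interferon-stimulated response element, and switches on a large set of antiviral genes. Endothelial cells respond to both type I and type II interferon and can keep such genes on at a low tonic level. Among the rule genes, Ifit1, Ifit2 and Ifit3 bind foreign RNA, Isg15 is a ubiquitin-like modifier, and Rsad2 (viperin) makes a nucleotide that stops viral polymerases. Usp18 removes ISG15 from proteins and dampens the receptor, Irf7 is a transcription factor that amplifies the response, Ifi44 is an induced cytosolic protein, and Cxcl10 is a chemokine for T cells.

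The core of the response element was searched for in RefSeq promoter windows (GRCm38.p6, 250 bases before to 50 after each start), as GAAANNGAAA or its reverse complement TTTCNNTTTC. Of the 8 rule genes with a window, 5 (62.5%) held a match, against 1079 of all 27025 genes with a window (3.99%). The windows of Ifi44 and Irf7 and both windows of Ifit2 held none of these letters. Among the 52 interferon-list genes described below as called higher, 37 had a window, under 80%, so no share is read for them. The stretches around the matches are shown for the 5 rule genes that held a match, for Ifit3b and Oas1a, which were among the genes most enriched in members, and for the GTPase gene Igtp; the matched letters are in capitals, 5′ to 3′ along the gene.
Isg15, minus strand of chromosome 4, 156200863 to 156200908, 3 overlapping matches: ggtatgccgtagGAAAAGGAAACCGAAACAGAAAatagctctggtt
Ifit1, plus strand of chromosome 19, 34640773 to 34640825, 2 matches: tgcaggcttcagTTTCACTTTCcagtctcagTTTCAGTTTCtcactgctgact
Ifit3, plus strand of chromosome 19, 34583361 to 34583428, 2 matches: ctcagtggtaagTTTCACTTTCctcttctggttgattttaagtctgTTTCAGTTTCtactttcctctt
Ifit3b, plus strand of chromosome 19, 34607757 to 34607824, 2 matches: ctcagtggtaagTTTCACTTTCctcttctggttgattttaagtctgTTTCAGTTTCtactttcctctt
Rsad2, minus strand of chromosome 12, 26456551 to 26456584, 1 match: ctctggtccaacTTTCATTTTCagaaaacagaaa
Cxcl10, minus strand of chromosome 5, 92349081 to 92349114, 1 match: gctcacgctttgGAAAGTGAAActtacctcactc
Oas1a, minus strand of chromosome 5, 120907526 to 120907557, 2 overlapping matches: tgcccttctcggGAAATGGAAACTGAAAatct
Igtp, plus strand of chromosome 11, 58199510 to 58199543, 1 match: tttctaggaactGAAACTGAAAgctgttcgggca
The Ifit3 and Ifit3b stretches were letter for letter the same. These 2 genes are near-identical copies, so the counting may have split or dropped reads between them. A match is a description of the window, not evidence of binding.

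The 9 rule genes were not equally abundant in the members, and these values are a description of what was selected. Isg15 gave 836, 892 and 668 CPM (UMIs scaled to a library of 1000000) in untreated, sedentary and running members, or 31.2%, 32.1% and 31.1% of their rule-gene UMIs. Rsad2 stood at 649, 419 and 362 CPM, so its share was 24.2% in the untreated members and 15.1% and 16.8% in the others. Irf7 stood at 367, 460 and 343 CPM and Ifit1 at 352, 435 and 340 CPM. Cxcl10 was the rarest, at 28.4, 15.1 and 36.3 CPM, and was seen in only 24, 17 and 30 members. The median member held 4 rule-gene UMIs in each library. Members with exactly 3 or 4 made up 50.8%, 55.1% and 55.2%. At the upper end, 136, 84 and 75 members held 10 or more, with highest values of 67, 33 and 64. Just inside the threshold were 281, 257 and 245 barcodes with 3 UMIs, and just outside it 465, 429 and 393 with 2. Most members did not rest on 1 gene: 61.7%, 62.7% and 60.2% had UMIs of at least 3 different rule genes, and 85, 55 and 44 had UMIs of 1 only.

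Members were deeper than zero barcodes, with median UMIs of 1949.5, 1789 and 2159 against 1429, 837 and 1233. A deeper barcode passes a fixed number of UMIs more readily, so shares were also taken after thinning each barcode to the same number of UMIs. Unthinned, members were 21.3% (exact binomial interval 20.03 to 22.5) of untreated, 18.4% (17.2 to 19.7) of sedentary and 21.3% (19.9 to 22.8) of running endothelial barcodes. At 1000 UMIs the shares were 11.8% (10.8 to 12.9), 14.1% (12.7 to 15.6) and 9.87% (8.69 to 11.2), and the order of the libraries turned over: the sedentary share was now the highest. The untreated interval overlapped both others there, and only the sedentary and running intervals were apart. That step left out 705 untreated, 1681 sedentary and 815 running barcodes as too shallow. At 500 UMIs the shares were 4.37% (3.77 to 5.04), 4.72% (4.06 to 5.45) and 3.54% (2.92 to 4.25), and the intervals of all 3 libraries overlapped. Barcodes that missed the endothelial minimum reached 3 rule-gene UMIs in 14 of 140, 9 of 148 and 5 of 78 cases, at median depths of 984.5, 608.5 and 786.5 UMIs against 1607, 1170 and 1556 in endothelial barcodes. Single rule-gene UMIs can come from free RNA, and its part in the members near the threshold was not tested.

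**Figure D1:**
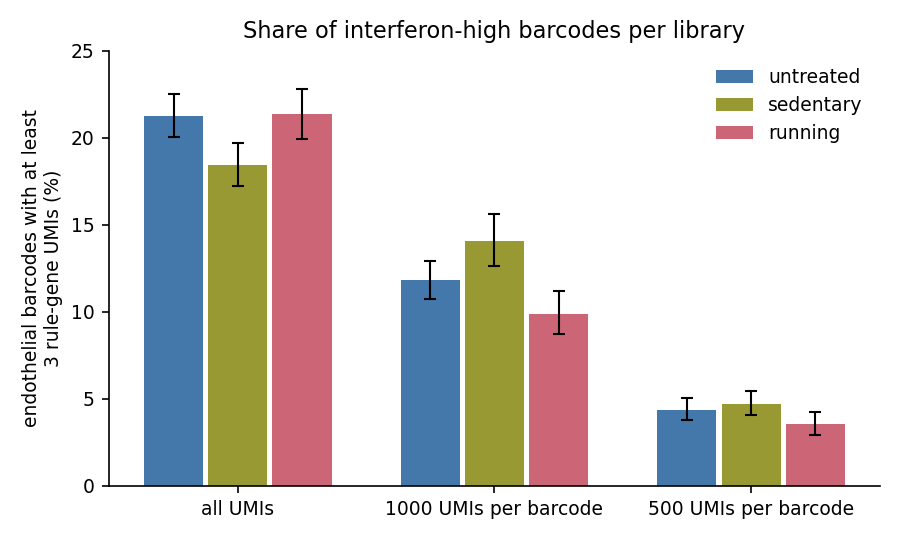
Percent of endothelial barcodes with at least 3 rule-gene UMIs in each library (bars), with all UMIs and after thinning to 1000 and 500 UMIs per barcode; error bars are exact 95% binomial intervals. The sedentary library is lowest with all UMIs (18.4%) and highest at 1000 UMIs (14.1%).

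The other genes were compared by pairing each member with 1 zero barcode of the same library and nearest depth. Pairing was close in the untreated library (median 1943.5 UMIs in both) and looser elsewhere (1779 against 1687 in sedentary, 2152 against 1826 in running). A gene with 30 UMIs or more in all was called when its ratio passed 1.5-fold, the same way, in each of the 3 libraries. This is a rule of size, with no test. Of 11133 genes, 142 were called higher (1.28%) and 119 lower (1.07%). Of 106 measured genes on 5 interferon-response lists (antiviral effectors, ubiquitin and ISG15 enzymes, nucleic acid sensors, signalling proteins and GTPases), 52 were called higher and 0 lower. Their median log2 ratios were 0.91, 0.77 and 0.72 in the untreated, sedentary and running libraries, beside 0.03, 0.02 and -0.02 over all genes. Because these genes respond to the same signal as the rule genes and were read in the same barcodes, their ratios describe the selected cells and are not independent evidence that the cells differ.

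Antiviral effectors, which destroy or block viral RNA and proteins, supplied 25 of the 52 calls from 49 measured genes. Ifit3b, the near copy of Ifit3, stood at 95.3, 138 and 96.9 CPM in members and at 16.1, 12.7 and 11.2 CPM in their matched barcodes. Its log2 ratios were 2.55 (2.01 to 3.17), 3.41 (2.71 to 4.28) and 3.07 (2.35 to 3.98), so the 3 member values lay above the 3 matched values. Oasl1, an OAS-like protein known to restrain Irf7 translation, had 23.2, 26.2 and 21.3 CPM against 2.14, 2.38 and 2.25 CPM, and log2 ratios of 3.29, 3.27 and 3.07. These were the most even of the large differences across libraries, but they rested on 4, 3 and 3 Oasl1 UMIs in matched barcodes. Their intervals were wide, at 1.99 to 5.37, 1.81 to 5.80 and 1.59 to 5.59. Oasl2 had 146, 159 and 125 CPM against 35.4, 50.7 and 44.2 CPM. Rtp4, an inducible Golgi chaperone, had 194, 214 and 185 CPM against 59.5, 59.4 and 65.2 CPM. Cmpk2, a mitochondrial nucleotide kinase whose gene neighbours Rsad2, had 73.5, 73.0 and 53.1 CPM against 14.5, 19.8 and 14.98 CPM. Oas1a, Oas2, Mx2, Apol9a, Apol9b, Phf11b and Parp12 were also among the 20 genes with the largest weakest ratio, between 1.17 and 2.88 on the log2 scale in single libraries. Several of these belong to families of near copies, in which reads may have been split. Apol9a had 4 UMIs in running members against 1, and its intervals spanned 0 in the sedentary and running libraries. The 2 most abundant effectors named differed less: Ifitm3, which blocks virus entry, had 3190.5, 3883 and 3203 CPM against 2431, 3071 and 2670.02 CPM, and Bst2 (tetherin) 766, 1020 and 692 CPM against 311, 687 and 482 CPM. Neither was called, because Ifitm3 stayed under 1.5-fold in each library and Bst2 did in 2 of the 3.

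Among the 14 ubiquitin and ISG15 enzymes 6 were called higher. Herc6, the mouse ligase that attaches ISG15, had 66.4, 60.6 and 60.0 CPM in members against 23.6, 13.5 and 22.5 CPM. Trim30a had 180, 143 and 112 CPM against 88.4, 62.6 and 51.7 CPM, and Rnf213 109, 107 and 89.4 CPM against 48.2, 54.6 and 40.5 CPM. Ube2l6, the ISG15-conjugating enzyme, had log2 ratios of 1.37, 0.66 and 1.22. Trim30d and Dtx3l were the other two. Members thus held more transcript of the modifier, which the rule chose, and of both its conjugating enzyme and its ligase, which it did not. Uba7, also on this list, was not called. It had 46.9, 93.0 and 59.4 CPM in members against 37.6, 63.5 and 65.4 CPM in all zero barcodes.

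Of 10 measured nucleic acid sensors 4 were called higher. Zbp1, a sensor of Z-form nucleic acid, was rare at 10.9, 9.64 and 12.1 CPM against 1.07, 1.58 and 2.25 CPM. Ifih1 (MDA5), a sensor of long double-stranded RNA, stood at 78.2, 66.1 and 57.7 CPM against 30.0, 27.7 and 17.98 CPM. Ddx58 (RIG-I) had log2 ratios of 0.69, 0.79 and 0.70, and its regulator Dhx58 1.90, 1.97 and 0.97.

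In the signalling list 4 of 18 genes were called higher, among them Stat2, Irf9 and Trafd1. Stat2 had 106, 112 and 103 CPM against 40.2, 72.8 and 61.4 CPM, and Irf9 88.2, 106 and 93.5 CPM against 41.2, 55.4 and 60.7 CPM. Trafd1 is a feedback inhibitor of innate immune signalling. The receptor and kinase genes named here were not called. Ifnar2 had 184, 168 and 154 CPM against 167, 153 and 147 CPM, and the intervals of its log2 ratios spanned 0 in each library. Ifnar1 had log2 ratios of 0.21, 0.00 and 0.47 and Jak1 of -0.29, 0.15 and 0.08. No transcript of the 20 interferon genes themselves was counted in any barcode of the 3 libraries, among 19611619 UMIs. That sets a limit on transcripts captured here and does not describe cells outside the sort.

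GTPases of the GBP and IRG families, which attack the membranes around intracellular pathogens and respond to both interferon types, had the highest share of calls: 13 of 15 measured, with all 15 above 0 in each library. Iigp1 was the most abundant described here, at 350, 482 and 686 CPM against 194, 252 and 385 CPM. Its level was highest in the running library in members and matched barcodes alike, so its log2 ratios stayed even at 0.85, 0.94 and 0.83. Gbp7 had 280, 318 and 300 CPM against 152, 154 and 159 CPM, and Igtp 51.7, 88.2 and 103 CPM against 23.6, 34.0 and 40.5 CPM. Tgtp1 and Tgtp2, which are near copies, had log2 ratios of 1.26 to 1.82. Gbp6 was counted 12 times in sedentary members and 0 times in their matched barcodes.

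MHC class I genes, which present peptides to CD8+ T cells, were higher by less. Of 21 genes, 19 were above 0 in each library, but only Tap1, the peptide transporter, was called. Tap1 had 48.4, 82.7 and 83.7 CPM against 25.2, 48.3 and 45.7 CPM. The abundant light chain B2m had 1857, 2516 and 2604 CPM against 1409.9, 2259 and 2516 CPM, log2 ratios of 0.40 (0.33 to 0.47), 0.16 (0.08 to 0.23) and 0.05 (-0.02 to 0.11). The list's median was 0.65, 0.37 and 0.22, highest in the untreated library. Of 9 measured chemokine and immune ligand genes 0 were called. Cxcl9, a chemokine known as a target of type II interferon, was at 28.4, 42.0 and 57.7 CPM against 32.7, 41.2 and 44.2 CPM. Within the few vein-like barcodes, described below, Cxcl9 was called higher, with log2 ratios of 2.77, 1.98 and 1.33. None of the 15 adhesion and NF-kappaB genes, the 26 immediate-early genes or the 14 heat shock genes was called over all members, and their median ratios lay between -0.13 and 0.31. Within capillary-like barcodes, where 83 of 9190 genes were called higher, Nfkb2 was called among 10 measured adhesion and NF-kappaB genes. Cd274 was called there among 8 measured chemokine and immune ligand genes. Above 0 in each library were 11 of the 26 immediate-early and 10 of the 14 heat shock genes, and below 0 in each 1 and 3, beside 1919 above and 1634 below of all 11133 genes. Dissociation of tissue is known to raise these 2 groups, and its part in the result was not tested.

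**Figure D2:**
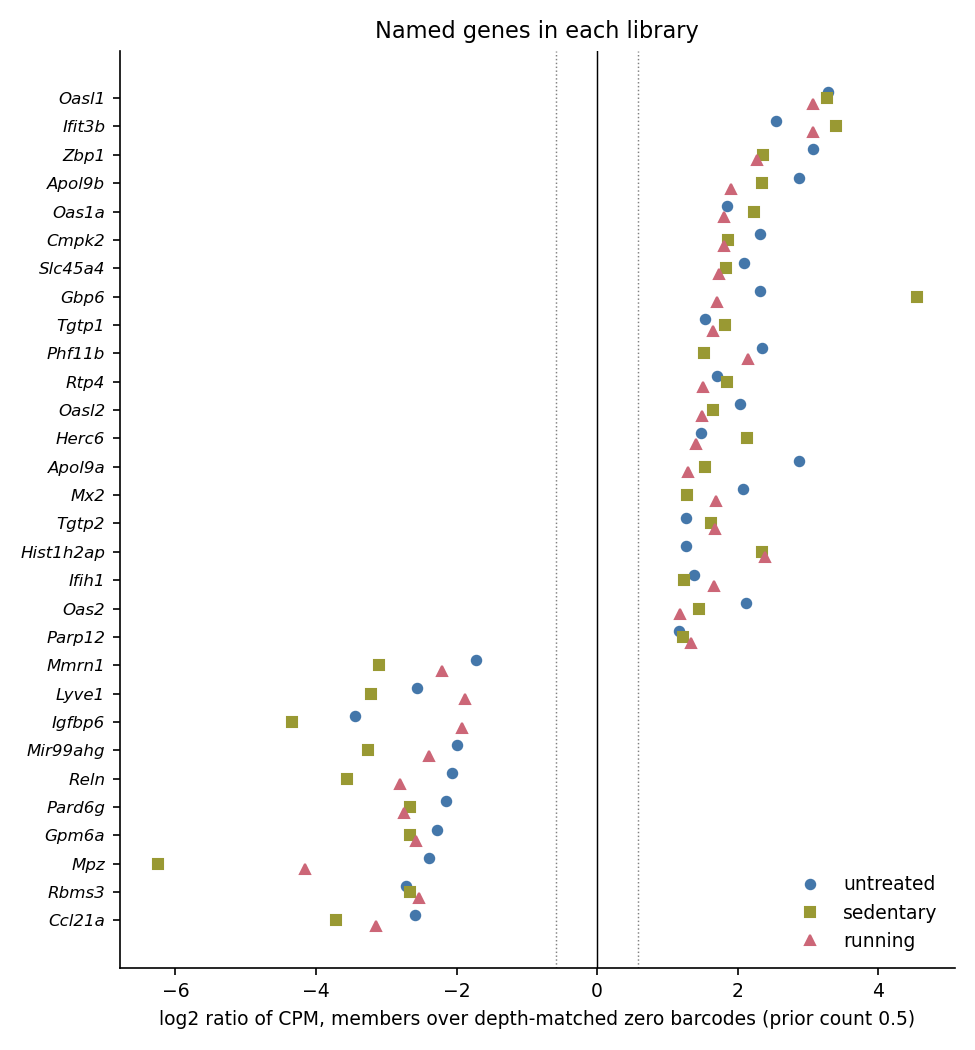
Log2 ratio of CPM in members over depth-matched zero barcodes for the 20 genes called higher and the 10 called lower with the largest weakest ratio; each mark is 1 library and the dotted lines are 1.5-fold. Of the 20 upper genes 18 are on the interferon-response lists; Slc45a4 and Hist1h2ap are not.

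Outside the interferon lists, 84 of the 142 genes called higher were on no interferon, MHC, chemokine or artery list. They included Slc45a4, a solute carrier gene, at 35.1, 17.9 and 13.3 CPM against 8.03, 4.75 and 3.75 CPM. They also included the histone gene Hist1h2ap, whose intervals reached below 0 in 2 libraries. With a minimum of 100 UMIs in place of 30, 94 genes were called higher and 46 of them were on the interferon lists. The genes called lower were led by lymphatic markers, with 6 of 8 called. Ccl21a, the lymphatic chemokine that guides dendritic cells, had 55.0, 13.8 and 235 CPM in members against 333, 185 and 2080 CPM, and Lyve1, a hyaluronan receptor, 7.59, 0.689 and 20.8 CPM against 46.1, 9.50 and 77.2 CPM. The Ccl21a levels did not follow the number of barcodes in the sedentary and running libraries: it was seen in 10, 20 and 128 members and in 17, 15 and 110 matched barcodes, and its log2 ratios within capillary-like clusters were -0.05, 0.50 and 0.19. Lyve1 was seen in 3, 1 and 8 members and in 10, 3 and 16 matched barcodes. Plvap, which forms the diaphragms of fenestrae and marks venous endothelium in muscle, had 211, 235 and 231 CPM against 500, 451 and 370 CPM. Of 10 measured mural genes 3 were called lower (Acta2, Tagln and Myh11), while the list's median log2 ratio changed sign between libraries, at 0.55, -0.66 and -0.90. Acta2, the smooth muscle actin, was seen in 6, 8 and 17 members and in 11, 5 and 13 matched barcodes.

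Markers of other cells differed between members and matched barcodes in part, and their part in the results was not tested. The 22 leukocyte markers summed to 17 and 12 UMIs in untreated and sedentary members against 27 and 22 in matched barcodes, and 17 of the 22, Ptprc (CD45) and Cd52 included, were at 0 in each of these. In running members they summed to 85 UMIs, in 25 barcodes, against 20 UMIs in matched barcodes. Of the 85, 34 were Lyz2 UMIs in a single barcode. In running members 12 of the 22 markers were at 0, and Ptprc and Cd52 were not among these. Without every barcode that held a leukocyte UMI, 134 genes were called higher and 49 of these were interferon-list genes. The 5 erythrocyte markers summed to 229, 1434 and 9127 CPM in members against 77.7, 5900 and 4968 CPM, a pattern that changed direction between libraries and in which single barcodes held up to 1886 Hba-a1 UMIs. None of the 5 endothelial markers of the rule was called, and Pecam1 had 1129, 1133 and 1022 CPM in members against 1096, 1078 and 978 CPM. Members and matched barcodes were both selected on these 5 genes. Their similar levels therefore describe the selection and do not compare how endothelial the 2 groups were.

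The summed interferon lists and Ifit3b were higher, step by step, with the number of rule-gene UMIs, and their steps did not begin at the threshold. In untreated barcodes with 0, 1 to 2, 3 to 5, 6 to 9 and 10 or more rule-gene UMIs, Ifit3b was at 13.0, 18.2, 45.9, 84.9 and 264 CPM. In sedentary barcodes it was at 17.6, 31.7, 57.2, 191 and 384 CPM, and in running barcodes at 11.3, 28.2, 56.5, 77.6 and 318 CPM. The summed GTPases went from 727 to 2419 CPM in the untreated, from 904 to 2517 CPM in the sedentary and from 1018 to 2799 CPM in the running library between the lowest and highest of these classes. The summed antiviral effectors went from 6602 to 13763, from 8319 to 15257 and from 7570 to 13859 CPM. The range of the signalling list was narrower, from 1299 to 1766, 1561 to 1989 and 1561 to 1986 CPM. Oasl1, which is no copy of a rule gene, was at 2.05, 2.19, 7.92, 29.0 and 65.3 CPM in the untreated classes, nearly level below the threshold. This did not hold in each library. From 0 to 1 to 2 rule-gene UMIs, Oasl1 went from 3.91 to 7.68 CPM in the sedentary and from 3.09 to 3.70 CPM in the running library. Some single genes were lower at 10 or more UMIs than at 6 to 9. Iigp1 went from 622 to 545 CPM in the sedentary library and Ifih1 from 80.1 to 63.5 CPM in the running library. These classes were cut on the rule's own counts, whose sampling error grades the class means too, so the steps do not tell a graded level from a mix of cells with and without the response. At exactly 3 rule-gene UMIs there were 783 barcodes. The share of artery-like barcodes was higher along the classes as well, from 21.8% to 61.8% in the untreated, from 12.9% to 58.3% in the sedentary and from 14.0% to 53.3% in the running library. Median depth was higher along the classes too, from 1429 to 2408 UMIs in the untreated, from 837 to 2292 in the sedentary and from 1233 to 2505 in the running library.

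**Figure D3:**
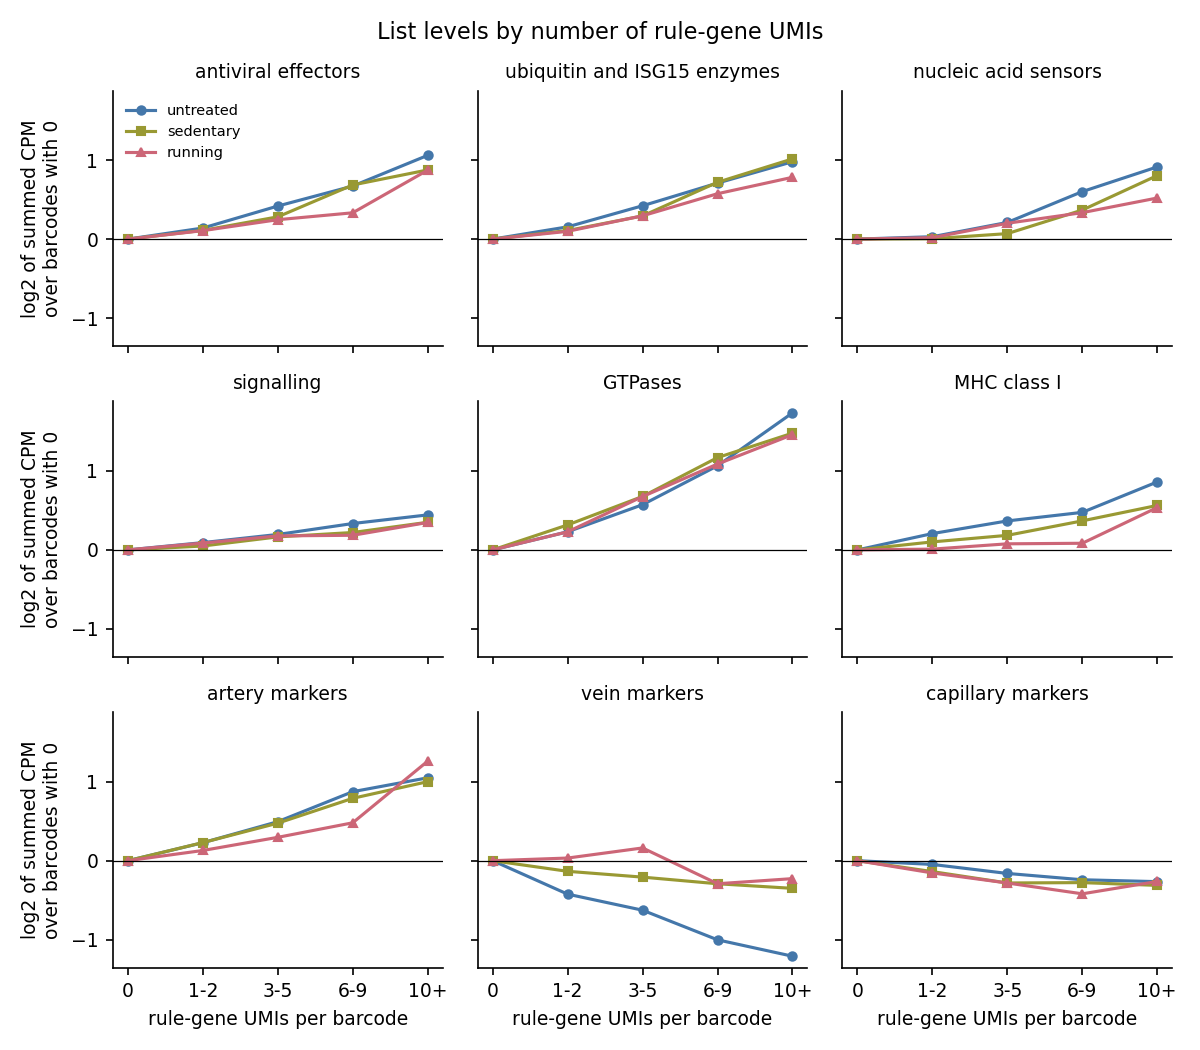
Summed CPM of 6 interferon-response and MHC class I lists and 3 vessel marker lists in barcodes with 0, 1-2, 3-5, 6-9 and 10 or more rule-gene UMIs, as log2 ratio to barcodes with 0; each line is 1 library. GTPases reach the highest ratio among the 6, artery markers are high in the same barcodes, and capillary markers lie below 0.

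Members were not spread evenly over the vessels. Clusters made without the rule genes and without the interferon, MHC and chemokine lists were named from marker lists, and artery-like clusters held 33.0%, 34.1% and 33.4% members. Capillary-like clusters held 16.5%, 14.0% and 17.9%, and vein-like clusters 10.9%, 15.4% and 22.8%. Small groups reached shares as high: the unnamed cluster 12, led by Penk, held 32.2%, 28.3% and 33.3% of 59, 53 and 39 barcodes, and mural-like clusters 43.5%, 60.0% and 14.3% of 23, 5 and 21. At 1000 UMIs these were 5.26%, 11.4% and 5.56% in cluster 12, and 3 of 23, 0 of 5 and 0 of 21 in mural-like clusters. At 1000 UMIs the artery-like shares were 18.8% (16.6 to 21.2), 22.6% (19.4 to 26.1) and 13.4% (10.7 to 16.6), and the capillary-like shares 10.6% (9.22 to 12.2), 12.4% (10.7 to 14.4) and 9.88% (8.39 to 11.5). Artery-like and capillary-like intervals were apart in the untreated and sedentary libraries and overlapped in the running library. The vein-like shares fell to 1.55% (0.67 to 3.03), 1.83% (0.50 to 4.63) and 5.29% (2.67 to 9.27). Vein-like barcodes were the deepest of the 3 classes, with medians of 2598, 2506 and 2962.5 UMIs against 1447, 940 and 1340 in capillary-like barcodes. Lymphatic-like barcodes reached 3 rule-gene UMIs in 0 of 27, 0 of 9 and 0 of 41 cases at that depth, with exact upper limits of 12.8%, 33.6% and 8.60%. Without any threshold, the rule genes summed to 1504, 1598 and 1285 CPM over artery-like, 892, 970 and 883 CPM over capillary-like and 332, 503 and 540 CPM over vein-like barcodes, which is the same order in each library. Isg15 and Irf7 followed that order in each library, but not every rule gene did. Rsad2 was at 299, 215 and 179 CPM over artery-like and 297, 198 and 188 CPM over capillary-like barcodes. Cxcl10 was higher over vein-like barcodes, at 33.6, 29.7 and 77.9 CPM, than over artery-like ones, at 1.98, 2.91 and 3.00 CPM.

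Within the artery-like class, cluster 6, led by Tgfb2, Dgat2 and Col8a1, held 39.0%, 46.9% and 42.6% members. The artery score was the highest of its own list scores, at 2.10, but clusters 7 and 8 scored 2.38 and 3.56 on that list. Cluster 6 had no artery-list gene among its 10 leading genes. Cluster 7, led by Nepn, Fbln5 and Serpinf1 and with 4 artery-list genes among its leading 10, held 21.5%, 26.0% and 25.1%. Cluster 6 was also the deeper, with median UMIs of 1764, 1856 and 2172.5 against 1305.5, 1305 and 1593. At 1000 UMIs the shares were closer, at 20.6% (17.9 to 23.6), 23.6% (18.9 to 28.9) and 13.4% (9.62 to 18.002) in cluster 6 and 15.3% (11.3 to 19.9), 22.05% (17.6 to 27.0) and 13.1% (9.27 to 17.9) in cluster 7, with overlapping intervals in each library. The small cluster 8, also artery-like, had 4 of 44, 0 of 6 and 2 of 9 at that depth. The capillary-like class was made of the same clusters in unequal parts in each library. Cluster 0 held 1275 untreated of its 1506 barcodes and cluster 4 held 1291 sedentary of 2061. Cluster 1 held 1011 running and 681 sedentary of 1795. Cluster 3, also capillary-like, was shared more evenly, with 724 untreated, 719 sedentary and 450 running of 1893.

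**Figure D4:**
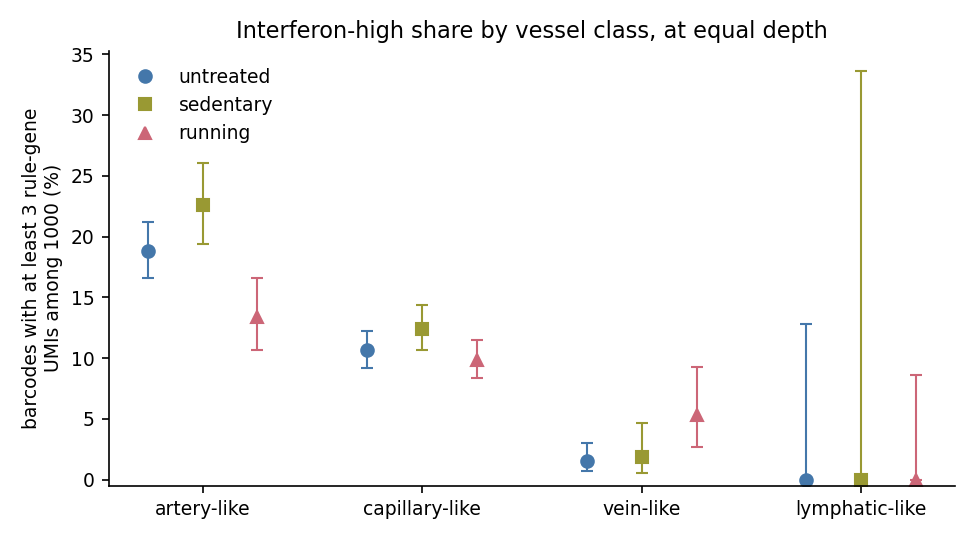
Percent of barcodes with at least 3 rule-gene UMIs among 1000 drawn UMIs, by vessel class and library, with exact 95% binomial intervals. Artery-like barcodes are highest and lymphatic-like barcodes are at 0 in each library; vein-like barcodes are at 1.55%, 1.83% and 5.29%.

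Artery markers were high in members as a whole, with 5 of 14 called higher and 1 lower. Hey1, a Notch target that drives arterial fate, had 295, 198 and 196 CPM in members against 92.7, 94.2 and 85.4 CPM. Gja4, an arterial connexin, had 119, 136 and 111 CPM against 48.2, 57.8 and 67.4 CPM. Sema3g, Fbln5 and Alpl were called too. Mgp, a calcification inhibitor of larger arteries, went the other way, at 90.1, 21.4 and 51.9 CPM against 367, 102 and 98.9 CPM.

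To separate vessel class from the interferon level, matching was repeated inside each class. Artery-like clusters held too few zero barcodes for this. Only 395, 234 and 184 of their 437, 274 and 210 members were paired, the deepest first. Every artery-like zero barcode was used, so none was chosen by its depth. Within capillary-like clusters 83 of 9190 genes were called higher (0.903%) and 36 lower (0.392%), and 43 of the 83 were interferon-list genes. Within artery-like clusters 77 of 8586 were called higher (0.897%) and 45 lower (0.524%), with 30 interferon-list genes among the 77. Of the genes called higher in both classes there were 23, and all 23 were on the interferon lists. Within vein-like clusters, with only 59, 37 and 51 members, 46 of 4910 genes were called higher (0.937%) and 26 lower (0.53%), 5 of the 46 on the interferon lists. Those 5, Ifit3b, Igtp, Iigp1, Oasl2 and Rtp4, were called in each of the 3 classes. Ifit3b had log2 ratios of 2.48, 3.37 and 2.67 within capillary-like, 2.15, 2.25 and 3.07 within artery-like and 2.25, 4.31 and 1.31 within vein-like barcodes. None of the 5 artery markers called over all members was called within capillary-like or artery-like clusters. Within vein-like clusters only Fbln5 of the 5 had enough UMIs to be measured, and it was not called. Hey1 within artery-like barcodes had log2 ratios of 0.50, 0.03 and 0.52, and Sema3g -0.25, -0.16 and -0.01. When each matched barcode came from the same cluster, 90 genes were called higher, 47 of them on the interferon lists and 0 on the artery list, and 32 were called lower. That matching kept 768, 619 and 581 of the 890, 713 and 669 members. Mgp stayed lower within artery-like barcodes, at log2 ratios of -3.36, -4.00 and -2.12. Slc45a4, a leading gene of cluster 6, was at 0.74, 0.52 and 0.23 within artery-like barcodes and was not called there.

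**Figure D5:**
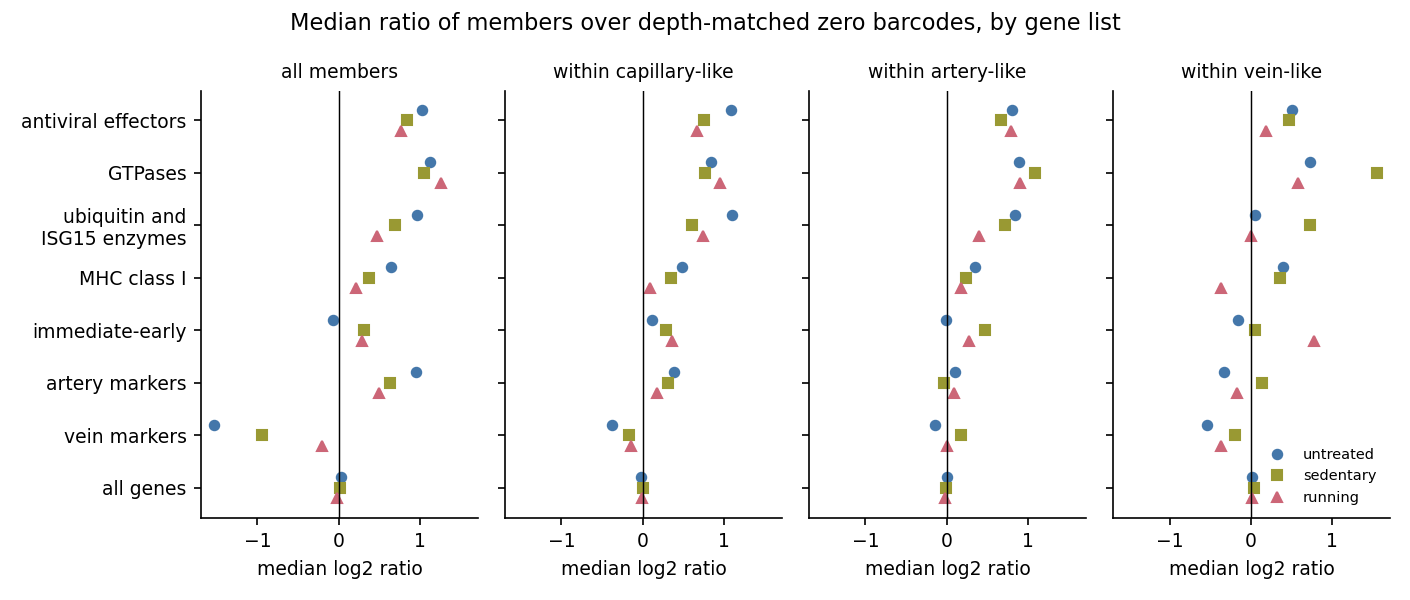
Median log2 ratio of members over depth-matched zero barcodes for 7 gene lists and all genes, over all members and within each vessel class. Each mark is 1 library. Within artery-like clusters every zero barcode was used, so there they were not chosen by depth. Antiviral effectors and GTPases stay above 0 within each class, and the artery-list medians within artery-like clusters are 0.10, -0.03 and 0.09.

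Set against the members of each other library, running members had 271 of 9799 genes past 1.5-fold higher in both (2.77%) and 269 past it lower in both (2.75%). Members were selected at the same rule-gene minimum in each library, but at different depths. Their median UMIs were 2159 for running, 1949.5 for untreated and 1789 for sedentary members. A deeper barcode passes a fixed minimum more readily, so the minimum did not select members of equal rule-gene CPM. Members were not matched for depth between libraries, and the part of depth in the differences below was not tested. This comparison also does not call genes that set the untreated members apart. Of 102 measured interferon-list genes 3 were higher in running members (Irf8, Batf2 and Gm4951) and 4 lower (Apol9a, Ifi27l2a and Trim21 among them). Ifi27l2a, a mitochondrial interferon-induced protein gene, had 608, 479 and 275 CPM in untreated, sedentary and running members, while zero barcodes had 234, 151 and 158 CPM. Irf8, a transcription factor induced by type II interferon, had 7.11, 22.7 and 44.4 CPM in members and 17.1, 19.5 and 25.2 CPM in zero barcodes, and 67 running members held it. Trim25, a ubiquitin ligase that acts on RIG-I, had 538, 105 and 94.0 CPM in members, highest in the untreated library, and zero barcodes had 448, 106 and 99.8 CPM. Irf1, a transcription factor induced by interferons, had 186, 316 and 392 CPM in members and 152, 244 and 268 CPM in zero barcodes, lowest in the untreated library in both. These 2 genes were picked after their values were seen. The medians of the interferon lists were -0.16 for running against sedentary members and 0.01 for running against untreated members.

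The genes highest in running members by this rule were Lyz2, Alas2, Hbb-bt, Hba-a1 and Hba-a2, markers of myeloid and red cells. They rested on few barcodes: 34 of 37 Lyz2 UMIs, 37 of 68 Alas2 UMIs and 973 of 1755 Hbb-bt UMIs came from 1 barcode each. The lowest were Pank4, Rbm4, Apol9a, Hist2h2aa1 and Mast3, each with 30 to 35 UMIs over the members of all libraries. Of 13 vein markers 9 were lower in members than in matched barcodes in each library and 0 higher in each, with list medians of -1.54, -0.94 and -0.21, and Plvap and Ackr1 were called lower. Selp and Vcam1, 2 venous adhesion genes of that list, differed in direction between libraries. Selp (P-selectin), which tethers rolling leukocytes, had 59.3, 20.7 and 127 CPM in untreated, sedentary and running members against 239, 84.7 and 50.2 CPM in matched barcodes, and Vcam1 43.1, 28.2 and 67.5 CPM against 164, 98.2 and 27.0 CPM. Both were lower in members in 2 libraries and higher in the running library, the library in which vein-like barcodes also had their highest thinned share of members. These 2 genes were picked after their values were seen. Within vein-like barcodes, where members numbered 51 in the running library, Selp had log2 ratios of -0.60, -1.01 and 1.42.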

How the data were processed

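Each library's deposited matrix held raw UMI counts per gene and barcode for 41605 gene rows, made by the authors with Cell Ranger 2.0.2 on GRCm38.p5, per the submitters' processing notes. Strand and multi-mapping settings are not given in the sources used here. Libraries held 8002866 (untreated), 5625068 (sedentary) and 5983685 (running) UMIs in 4376, 4079 and 3260 barcodes. Rows that share a symbol were kept apart, and gene positions come from GENCODE M21.

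Members were found with the rule in the report. The members and all gene lists were chosen with earlier results of these data known. Each member was paired, without replacement, with the zero barcode of its library nearest in UMIs, rule genes left out of the total. The plan named 5 zero barcodes per member. The libraries hold too few for that, so 1 was used. UMIs were summed per library and scaled to CPM without the rule genes, and log2 ratios used a prior count of 0.5. Fold intervals are exact Poisson intervals and shares have exact Clopper-Pearson 95% intervals. The ratio code recovered known fold changes in counts simulated from the summed UMIs. That simulation held no selection of members, so it checks the ratio step only.

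Clusters (scanpy 1.11.5) used the pooled endothelial and other barcodes, 2000 variable genes, 30 components, 15 neighbours and Leiden resolution 1. The score limits for naming them (0.3 for vessel classes, 2 for others) were set after the data were seen. No doublet caller was run; leaving out the 5% deepest barcodes was tried instead. Alternatives also changed the rule threshold, depth, matching, scaling (TMM in edgeR 4.0.16), prior count and UMI minimum. Genes named are the rule genes and endothelial markers, the 20 called higher and 10 called lower with the largest weakest ratio, the leading genes of each list, and 5 each way between libraries. Other list members named in the report (Ifnar1, Ifnar2, Jak1, Ifitm3, Iigp1, Igtp, Gbp7, Ube2l6, B2m, Trim25, Irf1, Selp, Gja4 and Alpl among them) were chosen after their values were seen. Some list genes are not reported here.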

Additional observations from a re-analysis of the deposited data

Results flagged for a closer look

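Haemoglobin genes differed between members and matched barcodes in opposite directions in different libraries, with intervals beyond 2-fold both ways. For Hba-a1 the log2 ratios were 1.78, -2.08 and 0.86 in the untreated, sedentary and running libraries, for Hba-a2 2.04, -2.28 and 0.86, and for Hbb-bt -1.44, -1.96 and 1.38. Single barcodes held much of this: 140 of 149 Hba-a1 UMIs of the untreated members and 1886 of 4556 of the running members came from 1 barcode each. The noncoding gene Meg3 had log2 ratios of 2.81, -0.70 and -3.43, and 47 of its 79 UMIs in running matched barcodes came from 1 barcode. These differences between libraries were not tested. Barcodes that missed the endothelial minimum, which the comparisons do not use, reached 3 rule-gene UMIs in 10.0% of untreated, 6.08% of sedentary and 6.41% of running cases.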

How the results depend on the processing

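The shares of members (21.3%, 18.4% and 21.3% in untreated, sedentary and running) followed the threshold and the depth. They were 32.4%, 29.5% and 33.9% at 2 rule-gene UMIs, 10.5%, 8.27% and 9.57% at 5, 11.8%, 14.1% and 9.87% thinned to 1000 UMIs, 4.37%, 4.72% and 3.54% thinned to 500, and 19.2%, 16.8% and 19.5% without the 5% deepest barcodes. They were 19.2% (untreated) and 17.0% (sedentary) with UMIs of 2 different rule genes, and 22.8% (sedentary) with 500 genes. Interferon-list calls stayed within 1.5 times of 52 under each alternative run. The median of those lists (0.81) was 0.63 at 2 rule-gene UMIs, 1.05 at 5, 0.93 without the deepest barcodes, 0.68 against unmatched zero barcodes and 1.00 with pairs within 10% in depth. Counts over all genes (142 higher, 119 lower) were 232 and 220 with at least 10 UMIs per gene and 94 and 43 with at least 100. They ranged from 253 to 338 and from 251 to 306 when a library was left out, where 2 libraries in place of 3 must meet the fold. With matched barcodes from the same cluster they were 90 and 32, and with pairs within 10% in depth 63 were lower. Of the 890, 713 and 669 members, the first kept 768, 619 and 581 and the second 657, 447 and 240. The artery list (5 called, median 0.77) had 8 and 1.04 at 5 rule-gene UMIs, 2 and 0.49 with pairs within 10%, and 0 and 0.40 within clusters. Within clusters the lower calls Mmrn1 and Ackr1 turned to 0.36 and 0.17. These within-cluster and 10% alternatives were chosen after seeing the data, and the causes were not tested. TMM scaling moved the median of all genes by less than 0.05. Of 1775 other comparisons over named genes, 1644 kept their call or, where there was none, moved within the spread of the libraries. No paired analysis was possible because each group has 1 library.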
